A study of Mus musculus with 6 samples.

Results

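Endocrine autoimmunity antigens are proteins of hormone-producing tissues that antibodies or T cells attack in human autoimmune disease of the thyroid, pancreatic islet, parathyroid and gut endocrine cells. Their transcripts were followed in medullary thymic epithelial cells (mTECs) of Mbd1 knockout and wild type mice. The set held the 9 genes Tg, Tshr, Gad1, Gad2, Ptprn, Ptprn2, Casr, Ddc and Tph1, chosen by name, and every probe of the authors' array matrix that carried a member's symbol was taken. This gave 9 of 21658 named genes and 16 of the 41174 probes. MBD1 KO and MBD1 WT mice were 30 days old, with 3 arrays per genotype left from 4 biological replicates of each after the authors' quality control. The sources used here do not say which exons were deleted, on which strain, or whether animals were pooled. The sort took DAPI-negative thymus cells that were positive for EpCAM and class II and negative for CD45, CD11c and Ly51. Their RNA was amplified, given the single dye Cy3 and read on Agilent arrays.

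mTECs transcribe genes of many other organs and display the products to developing T cells, so that cells reacting to them can be removed. Aire drives a large share of this transcription, and Mbd1, a protein that binds methylated CG dinucleotides, is known as a partner of Aire. Tg and Tshr belong to the thyroid, Gad1, Gad2, Ptprn and Ptprn2 to neuroendocrine cells and islets, Casr to the parathyroid, and Ddc and Tph1 to cells that make serotonin and other monoamines. The comparison addresses whether transcripts of these antigens differ in mTECs that lack Mbd1.

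Mbd1 itself separated the matrix columns as named. Its probe A_51_P143224 read 5.64, 5.61 and 5.60 on the log2 scale in columns knockout 1 to 3, against 8.83, 8.60 and 8.999 in columns wild type 1 to 3. The knockout values lay near the level of probes never well above background, whose 95th percentile was between 5.46 and 5.62 in the 6 columns. The dimmer Mbd1 probe A_52_P131423 differed by -0.98 (SE 0.19, limma, adjusted p = 0.126). All its knockout values lay below the wild type ones, without passing. The scanner files went against these names. Ranked over probes, 5 of the 6 columns were identical to a scanner array. In 0 cases did that array bear the column's own name, and in 4 cases its title gave the opposite genotype. Column knockout 1 equalled no array. Genotypes below are those of the matrix columns, and the difference between arrays grouped by their titles is given separately. Per array, 73.5% to 81.3% of probes exceeded background clearly, and 0 spots were saturated. All 19 probes of 15 mTEC marker genes were well above background on at least 3 arrays. That count does not set mTECs apart, since 32678 of the 41174 probes and 12 of 12 B cell marker probes did the same. The mTEC markers were bright, with a mean level per column between 12.38 and 12.52, against 8.20 to 8.21 over all probes tested. Aire read 11.25, 10.50 and 11.44 in the knockout columns, against 10.94, 10.52 and 10.85 in the wild type columns, and the columns overlapped. Its difference was 0.30 (SE 0.26, limma, adjusted p = 0.9995). Fezf2, another driver of tissue antigens in mTECs, differed by -0.02 (SE 0.27).

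Since Mbd1 reads CG dinucleotides, the promoters of the members are shown by their CG content. RefSeq promoter windows of build GRCm38.p6, each running from 250 bases before a transcription start to 50 after it, were found for 7 of the 9 genes, with 10 windows in all. Tg and Tshr had no entry. The 2 windows richest in CG are shown first and the 2 poorest after them, written 5′ to 3′ with every CG in capitals.
Ptprn2: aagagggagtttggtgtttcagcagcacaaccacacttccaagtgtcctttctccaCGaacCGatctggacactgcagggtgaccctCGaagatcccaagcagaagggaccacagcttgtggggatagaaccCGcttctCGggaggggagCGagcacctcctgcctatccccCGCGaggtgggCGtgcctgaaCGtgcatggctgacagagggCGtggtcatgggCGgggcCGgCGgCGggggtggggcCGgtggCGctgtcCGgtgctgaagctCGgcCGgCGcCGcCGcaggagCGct
Gad1: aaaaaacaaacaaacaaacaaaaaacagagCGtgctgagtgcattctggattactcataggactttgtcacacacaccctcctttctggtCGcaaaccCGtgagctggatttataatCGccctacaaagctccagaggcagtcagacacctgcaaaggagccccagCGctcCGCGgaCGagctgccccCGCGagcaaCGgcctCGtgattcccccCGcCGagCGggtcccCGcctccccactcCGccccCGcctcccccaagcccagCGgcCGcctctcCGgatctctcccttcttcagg
Ddc: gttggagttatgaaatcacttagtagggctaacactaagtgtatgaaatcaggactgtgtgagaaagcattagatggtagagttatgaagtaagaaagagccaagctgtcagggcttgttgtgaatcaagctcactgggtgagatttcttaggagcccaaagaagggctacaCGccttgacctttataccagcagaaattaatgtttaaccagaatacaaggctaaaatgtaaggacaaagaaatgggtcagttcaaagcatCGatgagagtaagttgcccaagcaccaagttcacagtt
Casr: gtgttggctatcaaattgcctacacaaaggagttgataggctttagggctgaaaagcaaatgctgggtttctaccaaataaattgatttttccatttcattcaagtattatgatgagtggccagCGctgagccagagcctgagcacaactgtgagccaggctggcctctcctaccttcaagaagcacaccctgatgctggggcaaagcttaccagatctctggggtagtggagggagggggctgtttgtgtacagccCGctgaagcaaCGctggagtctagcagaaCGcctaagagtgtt
The Ptprn2 window (chr12:116485470-116485769, plus strand) held 24 CG dinucleotides, more than 80.0% of all 32851 windows. The Gad1 window (chr2:70561879-70562178, plus strand) held 21. The Ddc window at the upstream of its 2 starts (chr11:11898095-11898394, minus strand) held 2, and the Casr window (chr16:36562085-36562384, minus strand) held 4. Over all windows the median was 7 and the quartiles were 3 and 20, and 94.6% held at least 1 CG. Among the other windows, Gad2 had 14, Ptprn had 14 and 15 at its 2 starts, Tph1 had 5 and 19, and the downstream Ddc start had 5. The letters TATAAA, searched on both strands in the 250 bases before the start, were in the Gad1 window and in the upstream Ddc window, and in 12.4% of all windows. CG counts are properties of the sequence, and methylation was not measured here.

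**Figure D1:**
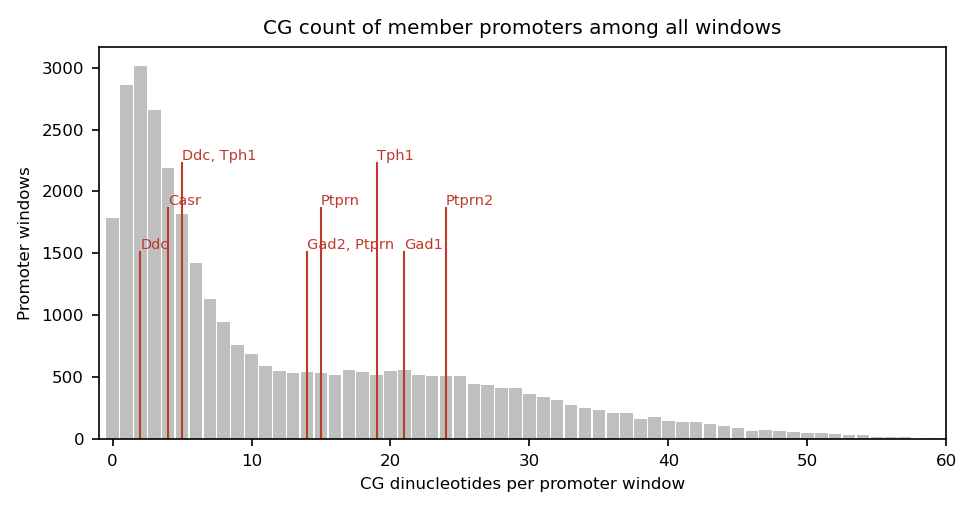
Number of CG dinucleotides per 300-base promoter window (x axis) against the number of RefSeq windows with that count (y axis, grey bars), with the windows of the members marked in red. Member windows ran from 2 in Ddc to 24 in Ptprn2, on both sides of the overall median of 7.

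None of the members passed the test between knockout and wild type columns. The test was limma's moderated fit on the log2 matrix values over the 32678 probes detected well above background by 3 or more of the 6 arrays, with Benjamini-Hochberg adjustment over all of them. Of the 16 member probes 14 entered it, and 0 passed an adjusted p of 0.05, against 57 of all probes tested (0.174%). By direction, 0 members were higher, against 0.162% of all probes, and 0 were lower, against 0.0122%. At an unadjusted p of 0.05 again 0 of the 14 passed, where 3.94% of all probes did. In 0 of the 14 did the knockout and wild type columns lie apart without overlap, where 8.11% of all probes did (4.06% with knockout above and 4.05% with knockout below). The differences ran from -0.56 to 0.30 with a median of 0.05, 9 above and 5 below 0, and the median over all probes tested was -0.01. With 3 columns per group an exact permutation test cannot give a p below 0.1. Fewer cells carrying a transcript and less transcript per cell cannot be told apart in these sorted populations.

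**Figure D2:**
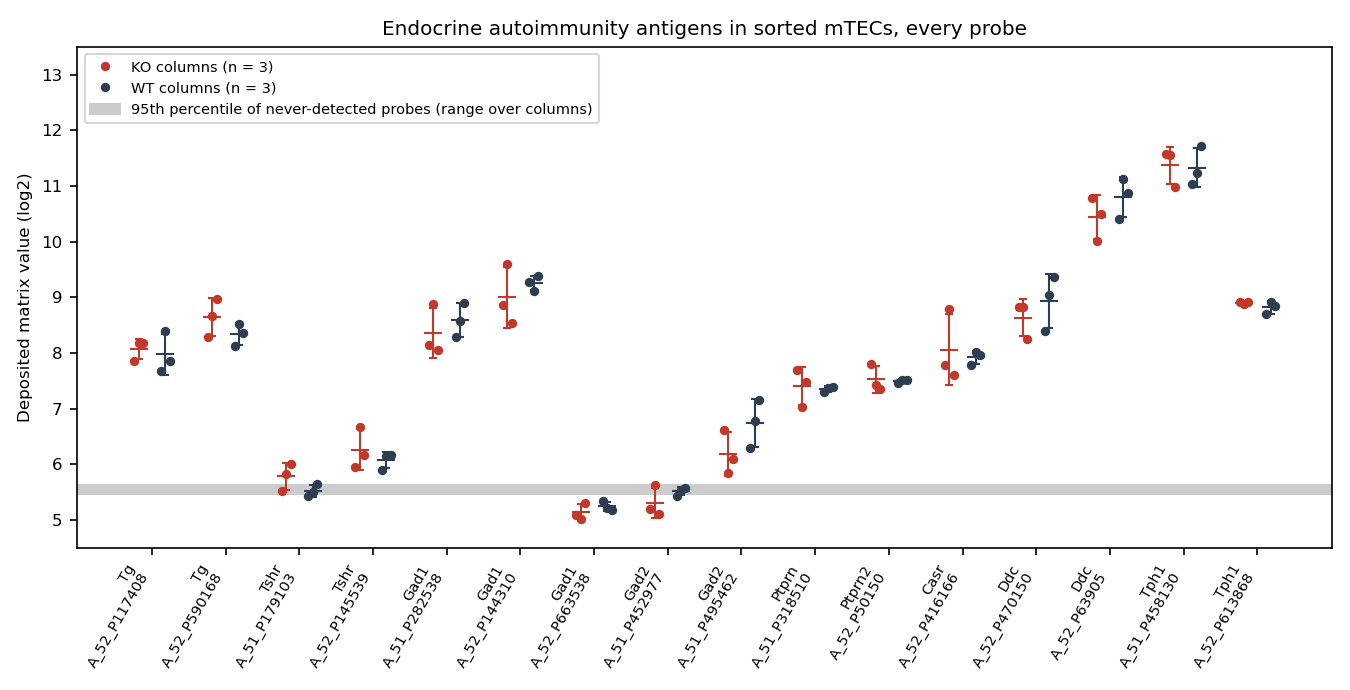
Deposited matrix value on the log2 scale (y axis) of each member probe (x axis) in the 3 knockout columns (red, left of each pair) and the 3 wild type columns (dark, right), with mean and SD. Knockout and wild type values overlapped for every probe, and the probes A_52_P663538 of Gad1, A_51_P452977 of Gad2 and A_51_P179103 of Tshr lay in or near the grey band of probes never well above background.

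The thyroid antigens Tg and Tshr read slightly higher on average in the knockout columns at all 4 of their probes, within the spread of the columns. Tg (chromosome 15), the protein scaffold on which thyroid hormone is made, was well above background on all 6 arrays at both probes. Its probe A_52_P590168 read 8.29, 8.66 and 8.97 in the knockout columns, against 8.13, 8.53 and 8.36 in the wild type columns. Knockout 3 was the highest of the 6, and the lowest knockout column lay below 2 wild type columns. The difference was 0.30 (SE 0.22, 95% interval -0.19 to 0.80, adjusted p = 0.9995). The second Tg probe, A_52_P117408, read 7.86, 8.18 and 8.18 in the knockout columns and 7.68, 8.39 and 7.87 in the wild type columns, with a difference of 0.10 (SE 0.23). Wild type 2 was the highest column there. The 2 Tg probes followed each other over the 6 columns (Pearson's r = 0.73, a description over 6 columns).

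Tshr (chromosome 12), the thyrotropin receptor and the target of the stimulating antibodies of Graves' disease, was close to background. The probe A_52_P145539 was well above background on 5 arrays and A_51_P179103 on 4. Both counts include the array titled knockout 2, which equals no column. The first probe read 5.95, 6.67 and 6.17 in the knockout columns, against 5.91, 6.15 and 6.16 in the wild type columns, on average 0.63 over the background percentile. Only knockout 2 stood off from the other columns. Its difference was 0.19 (SE 0.22, 95% interval -0.30 to 0.68). The second read 5.53, 5.82 and 6.01 in the knockout columns, against 5.43, 5.50 and 5.64 in the wild type columns, with a difference of 0.26 (SE 0.20), and 3 of its 6 values lay over the background percentile. In 5 of the 6 columns the ranks were those of the median signal before background subtraction. Differences of dim probes can be compressed where background remains in the values, and this was not tested for Tshr.

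Other genes of thyroid hormone synthesis were also measured, and 0 of 13 tested probes passed, with 3 above and 10 below 0 and a median of -0.07. Duox1, an oxidase that supplies hydrogen peroxide for iodination, had the smallest p. It read 7.78, 7.78 and 7.74 in the knockout columns, against 6.94, 7.30 and 7.56 in the wild type columns, with a difference of 0.50 (SE 0.21, adjusted p = 0.9995), and all knockout values lay above the wild type ones. Nkx2-1 and Pax8, transcription factors of thyroid follicle cells, differed by -0.33 (SE 0.22) and -0.18 (SE 0.21), and the iodide transporter Slc26a4 by -0.23 (SE 0.21). Thyroid follicle markers were present at low level, with 5 of 6 probes of 5 genes tested and their mean per column between 6.13 and 6.36 in knockout and between 6.09 and 6.49 in wild type. Whether thyroid cells in the sort contributed to Tg or Tshr was not tested.

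Gad1 and Gad2 (both on chromosome 2) encode the 2 forms of glutamate decarboxylase, the enzyme that makes the transmitter GABA, and the Gad2 product is a main target of antibodies in autoimmune diabetes. Both read lower on average in the knockout columns, without passing the test. Gad1 was read by the probes A_52_P144310 and A_51_P282538, well above background on all 6 arrays. A_52_P144310 read 8.86, 9.60 and 8.54 in the knockout columns, against 9.27, 9.12 and 9.38 in the wild type columns. The highest and the lowest value of the 6 were both from knockout columns, knockout 2 and knockout 3. The difference was -0.26 (SE 0.26, 95% interval -0.83 to 0.32). A_51_P282538 read 8.14, 8.88 and 8.06 in the knockout columns, against 8.29, 8.57 and 8.91 in the wild type columns, with a difference of -0.23 (SE 0.26). The 2 probes followed each other closely (Pearson's r = 0.87 over 6 columns). Another probe, A_52_P663538, matched to the accession AK054554 and to no Ensembl symbol, was well above background on 0 arrays and did not enter the test. It read between 5.02 and 5.30 in knockout and between 5.19 and 5.34 in wild type.

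Gad2 had the largest difference of the set at its probe A_51_P495462. It read 6.62, 5.84 and 6.09 in the knockout columns, against 6.29, 6.77 and 7.16 in the wild type columns. Knockout 1 lay above wild type 1, and the other 2 knockout columns lay below all wild type columns. Knockout 2, knockout 3 and wild type 1, which shared a slide, all read below wild type 2 and wild type 3 of the other slide. Genotype and slide can therefore not be fully told apart at this probe. The means were 6.18 ± 0.40 and 6.74 ± 0.44 (SD, n = 3 each), and the difference was -0.56 (SE 0.27, 95% interval -1.15 to 0.04, unadjusted p = 0.063 and adjusted p = 0.9995 in limma). An absolute difference over 0.5 was found in 4.57% of all probes tested. The value lay on average 0.93 over the background percentile. The other Gad2 probe, A_51_P452977, was well above background on 1 array, and it read 5.19, 5.62 and 5.10 in the knockout columns, against 5.43, 5.54 and 5.57 in the wild type columns. It did not enter the test.

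Among genes of GABA transport and breakdown 0 of 11 tested probes passed, and the median difference was -0.06, with 4 above and 7 below 0. Slc6a11, a GABA transporter, differed by 0.46 at A_52_P227833 (SE 0.19, adjusted p = 0.9995), with all knockout values above the wild type ones. Slc32a1, which loads GABA into vesicles, differed by -0.13 (SE 0.19). Another transporter, Slc6a13, differed by 0.28 (SE 0.29).

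Ptprn (chromosome 1) and its paralog Ptprn2 (chromosome 12) encode tyrosine phosphatase-like proteins of the secretory granule membrane and are targets of antibodies in autoimmune diabetes. Among the genes read by a single probe, which were these and Casr, they had the smallest differences. Tph1 A_51_P458130, at 0.04, lay between them. Ptprn read 7.70, 7.03 and 7.48 in the knockout columns, against 7.30, 7.37 and 7.39 in the wild type columns. The knockout values lay on both sides of a tight wild type group. The SDs were 0.34 in knockout and 0.05 in wild type (n = 3 each), and the difference was 0.05 (SE 0.21, 95% interval -0.42 to 0.52). Ptprn2 read 7.81, 7.43 and 7.35 in the knockout columns, against 7.47, 7.52 and 7.52 in the wild type columns. Knockout 1 was the highest for both genes. Its difference was 0.03 (SE 0.20, 95% interval -0.41 to 0.46), which corresponds to a fold between 0.755 and 1.37 on this scale.

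Genes of secretory granules and regulated secretion, the compartment in which these phosphatase-like proteins lie, were mostly below 0. Of 34 tested probes 0 passed, 10 were above and 24 below 0, and the median was -0.06. Without overlap, 0 probes were higher and 5 lower in the knockout columns, where 4.05% of all probes tested were lower in that way. Chgb, the granule protein chromogranin B, read 9.10, 8.13 and 9.23 in the knockout columns, against 9.81, 9.29 and 9.48 in the wild type columns. All knockout values lay below the wild type ones, by -0.71 on average (SE 0.29, adjusted p = 0.9995). The smallest p of the list was that of Cadps, a protein that primes granules for release, with a difference of -0.75 at A_52_P121903 (SE 0.23, adjusted p = 0.745) and -0.29 at its brighter probe. The prohormone convertase Pcsk2 differed by -0.41 (SE 0.19). Pcsk1, another convertase, differed by -0.54 at A_52_P500979 (SE 0.29) and by -0.60 at A_52_P164524 (SE 0.21), and the granin Scg3 by 0.43 (SE 0.25). Neuroendocrine cell markers, of which several are granule genes too, had a median of -0.09 over 17 tested probes, with 8 above 0 and 0 passing. Their mean level per column was between 9.05 and 9.09 in knockout and between 9.11 and 9.20 in wild type.

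Casr (chromosome 16), the receptor with which parathyroid cells sense calcium, varied more among knockout than among wild type columns. It read 7.78, 8.79 and 7.60 in the knockout columns, against 7.79, 8.01 and 7.97 in the wild type columns. Knockout 2 stood 0.80 over the mean of the 6 columns, and the other 2 knockout columns lay below all wild type values. The difference was 0.13 (SE 0.29, 95% interval -0.49 to 0.76), and without knockout 2 it was -0.23. Defining markers of parathyroid cells were present in the sort. Pth, parathyroid hormone, read 12.33, 10.80 and 10.36 in the knockout columns, against 11.70, 10.85 and 10.73 in the wild type columns. Gcm2, the transcription factor of parathyroid cells, read 7.93, 7.62 and 8.35 in knockout and 8.34, 7.44 and 7.77 in wild type. Whether parathyroid cells in the sort contributed to Casr was not tested. Of 9 probes of parathyroid genes 0 passed, and the smallest p was that of Gna11, a G protein through which the receptor signals, with a difference of -0.35 (SE 0.20).

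Ddc and Tph1, enzymes of monoamine synthesis, were well above background on all 6 arrays at each of their probes. Ddc (chromosome 11), aromatic amino acid decarboxylase, is a target of antibodies in the human syndrome of AIRE loss. Its probe A_52_P63905 read 10.80, 10.02 and 10.50 in the knockout columns, against 10.41, 11.14 and 10.87 in the wild type columns. The highest values came from wild type 2 and 3, and knockout 2 was the lowest. The difference was -0.37 (SE 0.26, 95% interval -0.93 to 0.20, adjusted p = 0.9995). The probe A_52_P470150 read 8.83, 8.83 and 8.25 in the knockout columns, against 8.40, 9.04 and 9.37 in the wild type columns, with a difference of -0.30 (SE 0.27). It followed the first probe loosely (Pearson's r = 0.50 over 6 columns).

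Tph1 (chromosome 7), the tryptophan hydroxylase of serotonin-producing gut cells and mast cells, also did not pass. A_51_P458130 read 11.59, 11.55 and 10.99 in the knockout columns, against 11.05, 11.23 and 11.73 in the wild type columns. The 2 groups spanned almost the same range. The difference was 0.04 (SE 0.24, 95% interval -0.49 to 0.58). At A_52_P613868 the values were 8.92, 8.87 and 8.92 in the knockout columns and 8.70, 8.92 and 8.84 in the wild type columns, and the difference was 0.08 (SE 0.18, 95% interval -0.32 to 0.48). This was the narrowest interval of the 14, and it leaves folds between 0.803 and 1.40 on this scale. The 2 Tph1 probes hardly followed each other (Pearson's r = 0.22 over 6 columns).

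Genes of monoamine synthesis, storage and breakdown gave a median difference of 0.00 over 20 tested probes, with 11 above and 9 below 0 and 0 passing. Th, tyrosine hydroxylase, which makes the substrate of Ddc in catecholamine cells, read 9.46, 9.19 and 8.17 in the knockout columns, against 8.49, 9.82 and 10.14 in the wild type columns. It spread widely in both groups, and its difference was -0.55 (SE 0.42). The vesicle transporters Slc18a1 and Slc18a2 differed by -0.32 (SE 0.21) and 0.17 (SE 0.20), and Spr, which makes the cofactor of the hydroxylases, by 0.23 (SE 0.29). These were their brightest probes. At its dimmer probe A_52_P212388 Slc18a1 went the other way, by 0.11 (SE 0.25). The dimmer probes of Slc18a2 and Spr differed by 0.08 and 0.0042. Mast cell markers, which bear on Tph1, had a median of -0.03 over 10 tested probes, and their mean level per column was between 8.40 and 8.73 in knockout and between 8.50 and 8.77 in wild type. The list went both ways, with 4 probes above and 6 below 0. The mast cell protease Mcpt4 differed by 1.04 at A_51_P145132 (SE 0.25, adjusted p = 0.274) but by -0.0015 at its brighter probe A_51_P145130. Another protease, Cma1, differed by -0.60 (SE 0.21, adjusted p = 0.901), and the receptor chain Fcer1a by -0.25 (SE 0.21). Their part in the Tph1 values was not tested.

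**Figure D3:**
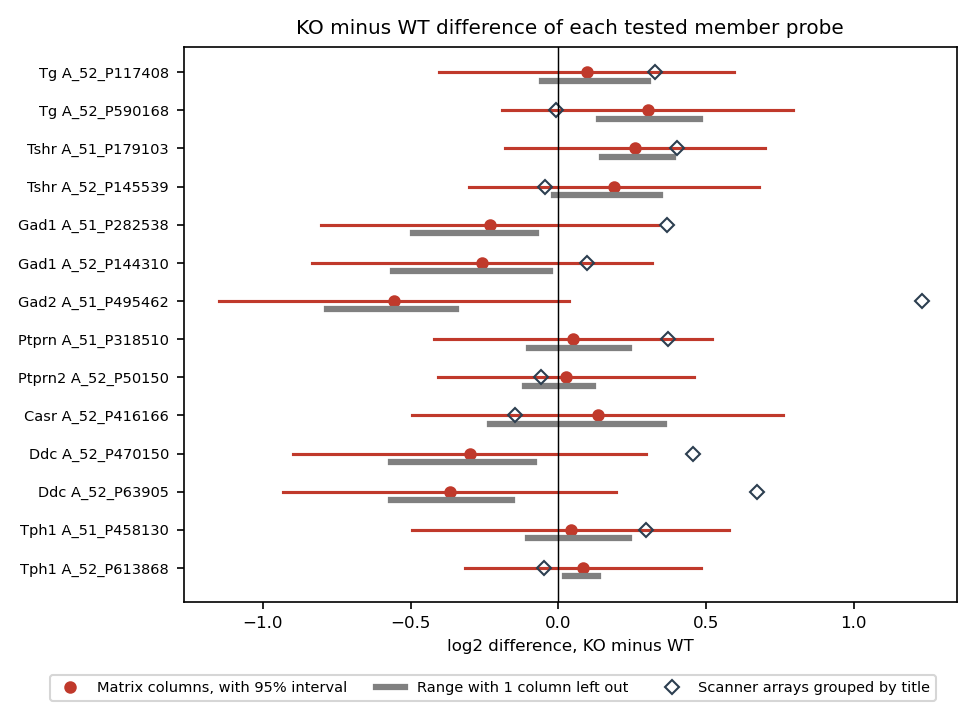
Difference of each tested member probe on the log2 scale, knockout minus wild type (x axis): red points and lines give the matrix columns with the 95% interval, grey bars the range when 1 column was left out, and open diamonds the scanner arrays grouped by their titles. All 14 intervals include 0, and the diamond of Gad2 A_51_P495462 lies at 1.23, against -0.56 for the matrix columns.

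No column was high or low for the whole set. Taking the brightest probe of each gene, knockout 2 was the highest of the 6 columns for Tshr, Gad1 and Casr and the lowest for Gad2, Ptprn and Ddc. Knockout 3 was the lowest for 4 genes and the highest for Tg. Knockout 1, wild type 2 and wild type 3 were the lowest for 0 genes. The range over the 6 columns was largest for Gad2, at 1.32, and smallest for Ptprn2, at 0.46. Over the 6 columns Casr followed Tshr (Pearson's r = 0.88) and Gad2 followed Ddc (0.86), while Casr and Ptprn ran in opposite directions (-0.81). These are descriptions over 6 columns that share normalization and, for some, a slide.

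**Figure D4:**
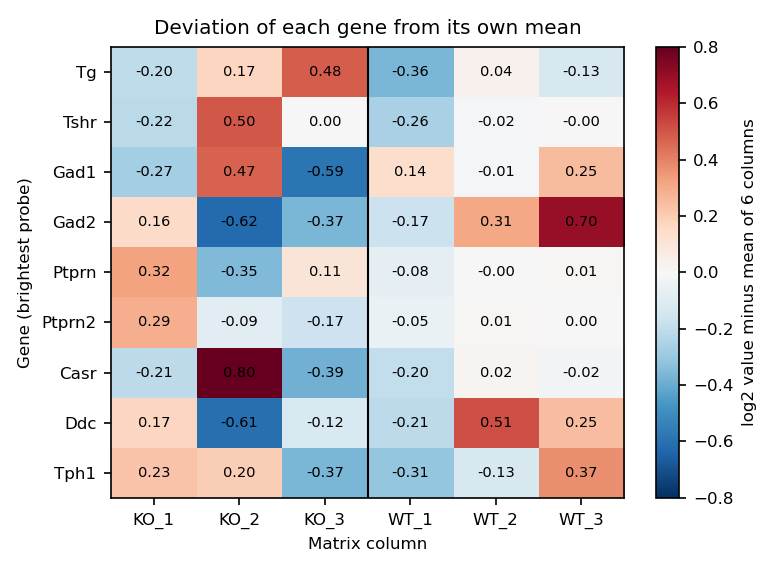
Deviation of each member's brightest probe (rows) from its own mean over the 6 matrix columns, on the log2 scale (colour and number), with knockout columns left of the black line and wild type columns right. Knockout 2 is high for Casr (0.80), Tshr (0.50) and Gad1 (0.47) and low for Gad2 (-0.62), Ddc (-0.61) and Ptprn (-0.35).

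Genes whose pattern over the 6 columns was most like a member's were sought among 3311 named genes with a range of at least 1 on the log2 scale (3310 where the member was itself among them). For Casr the closest was Rab27a (Pearson's r = 0.997), for Gad1 Cyp1b1 (0.992) and for Ddc Vps39 (0.992). For Tph1 it was Tmem86b (0.992), for Tg Chrm2 (0.988), for Gad2 Dhrs11 (0.983), for Ptprn Csk (0.976) and for Ptprn2 Slc9c1 (0.974). Gad1 had 220 genes with r over 0.9 and Ptprn2 had 8. Each closest gene was the best of 3310 or 3311 over only 6 columns. High values of r can arise in such a search without a relation between the genes, and a relation was not tested. Tshr had no probe well above background on all 6 arrays and was left out.

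Other autoantigens of endocrine disease were measured in the same columns. Of 38 tested probes 0 passed, 13 were above and 25 below 0, and the median was -0.07. Nlrp5, an oocyte protein attacked in autoimmune hypoparathyroidism, had the smallest p. It read 8.67, 8.97 and 8.77 in the knockout columns, against 7.97, 7.57 and 8.05 in the wild type columns, with a difference of 0.94 (SE 0.20, adjusted p = 0.198). The islet antigens Ins2, insulin, and Iapp, islet amyloid peptide, were lower in the knockout columns without passing. Ins2 differed by -0.69 (SE 0.24, adjusted p = 0.917). For Iapp the difference was -0.60 (SE 0.19, adjusted p = 0.80). Hsd3b1, a steroid-making enzyme, differed by -0.44 (SE 0.19). The knockout columns of Nlrp5 all lay above the wild type ones and those of Ins2, Iapp and Hsd3b1 all below. These genes were named for their small p, which favours such separation. Of the 38 tested probes, 1 lay above and 7 below without overlap, against 4.06% and 4.05% of all probes tested.

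**Figure D5:**
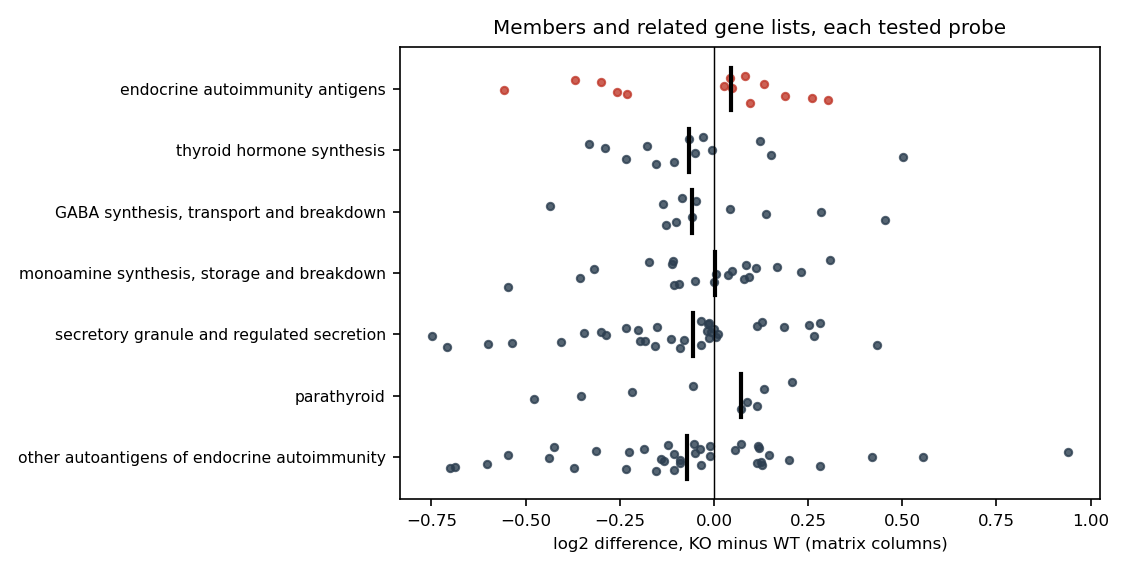
Difference of each tested probe on the log2 scale, knockout minus wild type (x axis), for the members (red) and 6 lists of related genes (dark), with the median of each list as a black bar. Medians lay between -0.07 and 0.07 in all 7 lists, and Nlrp5 lies farthest right at 0.94.

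Markers of cells other than mTECs were read in the same columns, and 0 probes passed in any of these lists. Of 19 tested thymocyte and T cell probes 17 were above 0, with a median of 0.43. At an unadjusted p of 0.05 in limma 7 of them passed, against 3.94% of all probes tested. Without overlap, 10 were higher and 0 lower in the knockout columns, against 4.06% and 4.05% of all probes tested. Their mean level per column was between 7.55 and 7.78 in knockout and between 7.16 and 7.31 in wild type. Cd8b1 and Dntt, genes of developing T cells, differed by 0.97 (SE 0.21) and 0.91 (SE 0.19), both at an adjusted p of 0.184. Plasma cell markers had a median of 0.13 over 7 tested probes, 5 above and 2 below 0. Among them Igj, the joining chain of immunoglobulins, differed by 1.74 (SE 0.45, adjusted p = 0.376), with 7.42, 9.60 and 7.99 in the knockout columns, against 6.4998, 6.29 and 6.99 in the wild type columns. Knockout 2 was the highest. Lists of B cell, dendritic cell, fibroblast and endothelial markers had medians between -0.06 and 0.15, cortical thymic epithelial markers 0.35 and tuft cell markers -0.09. Their part in the members' values was not tested.

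The slide on which an array lay is known for the 5 columns that match an array. One slide held knockout 2, knockout 3 and wild type 1, and the other held wild type 2 and wild type 3. With slide as a block the comparison therefore rests on wild type 1, and 0 member probes and 0 of all probes passed in limma (2129 probes at an unadjusted p of 0.05). Tg then differed by 0.69 at A_52_P590168 and 0.50 at A_52_P117408, and Tshr by 0.51 at A_52_P145539 and 0.48 at A_51_P179103. Gad2 differed by -0.32 and Casr by 0.40. At Gad2 A_51_P495462, both Ddc probes, Ptprn2 and Th, wild type 2 and wild type 3 read above every column of the other slide. Genotype and slide can therefore not be fully told apart for these probes. The remaining tested member probes did not split by slide in this way. The direction turned at Gad1 A_51_P282538 (0.18), Ddc A_52_P470150 (0.14), Ptprn (-0.0454) and Ptprn2 (-0.076), while the brighter probes of Gad1 and Ddc read -0.20 and -0.15.

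Grouped by the titles of the scanner arrays instead, several members changed direction and again 0 passed. On the processed intensity of the arrays, which is background-subtracted, Gad2 A_51_P495462 read 65.6, 53.5 and 135 on the arrays titled knockout 1 to 3, against 28.2, 27.2 and 31.2 on those titled wild type 1 to 3. The arrays titled knockout were all higher, and the difference after scaling was 1.23 on the log2 scale, opposite in sign to the matrix columns. Ddc A_52_P63905 read 2241, 1741 and 2528 on the arrays titled knockout, against 1245, 917 and 1386 on those titled wild type, and it differed by 0.67. The titles do not separate the arrays at the Mbd1 probes A_51_P143224 and A_52_P158923. A_51_P143224 gave scanner signals of 356, 17.2 and 682 on the arrays titled knockout 1 to 3. Those titled wild type 1 to 3 gave 20.9, 305 and 15.6. A_52_P158923 gave 233, 21.3 and 313 against 7.39, 190 and 9.10. The dimmer Mbd1 probe A_52_P131423 separated the titles only on these unscaled signals, with 75.7, 93.3 and 91.5 on arrays titled knockout, against 26.0, 63.3 and 28.1. The array titled wild type 2 equals column wild type 1. In the matrix that column read 6.75, above the 6.59 and 6.34 of columns wild type 2 and 3. The separation by title was therefore not kept in the matrix values. Of the arrays titled knockout, 1 and 3 equal columns wild type 2 and 3, and of those titled wild type, 1 and 3 equal columns knockout 2 and 3, so each set of titles holds arrays of both Mbd1 levels. The differences by title are therefore not differences between arrays with and without Mbd1 signal. All 3 arrays titled wild type lay on 1 slide and all 3 titled knockout on the other. Differences by title therefore cannot be told apart from differences between the slides. For Tph1 A_51_P458130 the spot of the array titled knockout 2 was marked as an outlier, so that fit used 5 arrays for it.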

How the data were processed

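Sorted mTECs of 3 Mbd1 knockout and 3 wild type samples were measured on 1-colour Agilent arrays. The deposited scanner files hold an intensity per spot, made with Agilent Feature Extraction (10.7.3.1 per the file headers, 10.6 per the submitters' processing notes), background-subtracted within the array in the processed signal. The authors' deposited matrix holds a log2 value for each probe under column names KO and WT, with 1 shared maximum and medians of 7.13 to 7.14. The sources used here name no tool for its normalization. It also holds the authors' log2 ratio, linear fold ratio, p-values and a log-odds score, which were deposited by the authors and not used here for any result. Differences and p-values in the report are from the fit described here.

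Matrix columns were fitted with lmFit and eBayes (limma 3.58.1, R 4.3.3), with Benjamini-Hochberg adjustment over 32678 probes well above background on at least 3 of 6 arrays, whatever their titles. The flag was read from all spots, outlier spots included. Symbols came from the matrix and RefSeq. Named were the genes of smallest p when each gene is read by its brightest probe, up to 4 from each related list and 2 from each cell type list. Cadps, Mcpt4 and second probes of named genes were added after their values were seen. Some genes of these lists are not reported here. Likeness was Pearson's r over the 6 columns. Members and lists were chosen with earlier results of these data known. Alternatives covered the filter, 1 probe per gene, moderation, left-out columns, replicate block, slide block and the scanner arrays by title. Number of arrays limits the precision. Probe positions are given by chromosome only, since no source used here names the matrix's genome build.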

Additional observations from a re-analysis of the deposited data

How the results depend on the processing

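None of the 14 tested member probes passed under any of the 14 alternatives, where the smallest adjusted p of a member was 0.645 (limma). Of 189 values 157 kept their direction and 32 turned. The filters, 1 probe per gene, the moderation and the replicate block leave a probe's difference unchanged by construction, so these values could not turn. All 32 turns came from left-out columns, the slide block or the scanner arrays by title. Without a column, the differences ranged from -0.23 to 0.36 for Casr, from -0.10 to 0.24 for Ptprn, from -0.11 to 0.12 for Ptprn2, from -0.055 to 0.30 for Tg A_52_P117408, from -0.10 to 0.24 for Tph1 A_51_P458130 and from -0.0129 to 0.34 for Tshr A_52_P145539, so these changed sign. With slide as a block, in 5 columns, Ddc A_52_P470150 read 0.14, Gad1 A_51_P282538 0.18, Ptprn -0.0454 and Ptprn2 -0.076. With the scanner arrays grouped by title, on the processed signal and then with normexp on the median signals (chosen after seeing the data, since the files list no mean signal), Casr read -0.15 and -0.11, Ddc A_52_P470150 0.46 and 0.41, Ddc A_52_P63905 0.67 and 0.76, Gad1 A_51_P282538 0.37 and 0.34, Gad1 A_52_P144310 0.10 and 0.0799, Gad2 1.23 and 0.54, Ptprn2 -0.0581 and -0.0943, Tph1 A_52_P613868 -0.047 and -0.0019, and Tshr A_52_P145539 -0.0463 and -0.0316. Tg A_52_P590168 read -0.0083 on the processed signal. By title each group holds arrays with high and with low signal at the Mbd1 probe A_51_P143224. Since 4 arrays equal columns of the opposite genotype, the grouping by title largely exchanges the matrix groups. A turn of sign by title is thus no measure of how stable a member's difference is. Each title group also lay on a slide of its own. Other causes of the changes in sign were not tested.

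Over all probes 53 were higher and 4 lower in the knockout columns. No filter on dim probes gave 23 higher, and 1 probe per gene gave 18 higher and 2 lower. Without a column the counts lay between 24 (without wild type 2) and 78 (without knockout 1) higher and between 3 and 7 (without knockout 3) lower. With the slide as a block, and with the scanner arrays by title on either signal, 0 passed in limma (2129, 1325 and 1596 at an unadjusted p of 0.05). The columns' numbers did not pair the samples, since the deviations of same-numbered columns correlated at -0.288, -0.185 and -0.333 over probes. With the replicate block 91 were higher, and 0 member probes passed. Of 266 list medians under the alternatives, 245 moved by less than the spread of the columns. The 21 that moved more all came from the slide block or the scanner arrays by title. Moderation and the replicate block leave a list's median unchanged by construction. Dim signal limits Tshr and Gad2, which lay within 1 log2 unit of background on average.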
